A study of Homo sapiens with 6 samples.

Results

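The keratin clusters and the epidermal differentiation complex were examined as 3 stretches of the genome, build hg19: the type II keratin locus with KRT18 (chromosome 12, 52.56 to 53.36 Mb), the type I keratin locus with the keratin-associated proteins (chromosome 17, 38.78 to 39.79 Mb) and the epidermal differentiation complex with the S100 genes (chromosome 1, 151.95 to 153.63 Mb). Their members are all ATAC-seq peaks inside these limits, 514 of the 212831 peaks of 6 libraries. Merged wherever peaks of any library overlapped by at least 1 bp, they formed 149 of 58926 regions: 47 in the type II locus, 32 in the type I locus and 70 in the epidermal differentiation complex. ATAC-seq marks open chromatin by the insertions of a transposase. The cells were HCT116, an established human colon cancer line. The NuMA-depleted group had 3 libraries, and the wild-type group had 3 libraries of the same line. The sample titles carry the abbreviations AID and NC, which the labels do not spell out, and neither the means nor the duration of the depletion is given in the sources used here. Whether replicates came from separate cultures is not in the labels, and the spread behind every p-value, that between libraries, may therefore be technical.

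Keratins are the intermediate filament proteins of epithelia and form filaments as pairs of an acidic type I and a basic type II protein. KRT8 and KRT18 are the pair of simple epithelia such as the lining of the gut, where KRT19 and KRT20 are also made, whereas KRT5 with KRT14 and KRT1 with KRT10 belong to the basal and upper layers of stratified epithelia. Other members of both clusters, and the keratin-associated proteins, are made in hair follicles. The epidermal differentiation complex holds genes of the cornified envelope (involucrin IVL, loricrin, the SPRR and LCE families), the fused S100 genes such as filaggrin FLG, and S100A genes, which encode small calcium-binding proteins. NuMA is a nuclear protein that organises spindle poles in mitosis and is part of the nucleoskeleton in interphase, and the series asks about its part in local chromatin architecture.

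The order of genes, without positions, was taken from the RefSeq annotation of GRCh38.p14, and no peak was assigned to a gene, since an hg19 annotation was not used here. For the same reason, markers of the labelled cell type were not checked. From low to high coordinate, the type II cluster runs from KRT80 and KRT7 through the hair keratins KRT86 to KRT82, then KRT75, the KRT6 genes, KRT5, KRT71 to KRT74, KRT2, KRT1 and KRT77, to KRT76, KRT3, KRT4, KRT79 and KRT78, and ends with KRT8 and KRT18. The type I cluster runs from KRT222, KRT24 and KRT25 to KRT28 over KRT10, KRT12, KRT20 and KRT23 to KRT39 and KRT40, then through the keratin-associated proteins and the hair keratins, and ends with KRT13, KRT15, KRT19, KRT9, KRT14, KRT16 and KRT17. The epidermal differentiation complex begins with S100A10 and S100A11 and continues with the fused S100 genes, the LCE genes, IVL, the SPRR genes and loricrin. It ends with the S100A genes from S100A9 to S100A1.

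Promoters from RefSeq (GRCh38.p14, 250 bases before to 50 after the annotated start) are printed for 4 genes, to show what start sites look like in the families named along these loci. They were chosen after the peaks were seen: S100A11 and S100A6, which the gene order puts at opposite ends of the complex, IVL from its interior, and KRTAP4-1 from the keratin-associated proteins in the interior of the type I cluster. S100A11 lies on chromosome 1 at 152036955 to 152037254, minus strand, S100A6 at 153535942 to 153536241, minus strand, and IVL at 152908296 to 152908595, plus strand. KRTAP4-1 lies on chromosome 17 at 41184862 to 41185161, minus strand. These are GRCh38.p14 positions and cannot be set beside those of the peaks. Capitals mark every match, on either strand, to TATAAA (the core of a TATA box), TGANTCA (the core of an AP-1 site) or GGGCGG (the core of an SP1 site), with overlapping matches counted singly.
S100A11: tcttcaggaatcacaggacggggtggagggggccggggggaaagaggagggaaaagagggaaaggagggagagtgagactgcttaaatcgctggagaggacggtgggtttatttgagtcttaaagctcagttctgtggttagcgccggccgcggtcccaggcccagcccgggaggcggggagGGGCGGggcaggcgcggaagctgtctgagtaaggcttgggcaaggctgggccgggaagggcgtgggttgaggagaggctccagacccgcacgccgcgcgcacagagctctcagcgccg
S100A6: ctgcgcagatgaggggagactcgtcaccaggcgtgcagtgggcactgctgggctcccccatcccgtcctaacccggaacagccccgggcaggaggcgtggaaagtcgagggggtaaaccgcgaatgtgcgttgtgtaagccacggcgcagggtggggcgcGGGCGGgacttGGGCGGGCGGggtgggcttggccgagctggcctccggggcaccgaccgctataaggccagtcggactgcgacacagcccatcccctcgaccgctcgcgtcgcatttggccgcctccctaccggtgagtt
IVL: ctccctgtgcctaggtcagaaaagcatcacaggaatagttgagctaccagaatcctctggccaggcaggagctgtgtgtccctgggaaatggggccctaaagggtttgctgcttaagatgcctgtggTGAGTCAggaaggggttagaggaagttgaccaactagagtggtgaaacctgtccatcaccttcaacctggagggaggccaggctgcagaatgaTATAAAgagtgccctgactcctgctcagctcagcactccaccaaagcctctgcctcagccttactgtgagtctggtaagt
KRTAP4-1: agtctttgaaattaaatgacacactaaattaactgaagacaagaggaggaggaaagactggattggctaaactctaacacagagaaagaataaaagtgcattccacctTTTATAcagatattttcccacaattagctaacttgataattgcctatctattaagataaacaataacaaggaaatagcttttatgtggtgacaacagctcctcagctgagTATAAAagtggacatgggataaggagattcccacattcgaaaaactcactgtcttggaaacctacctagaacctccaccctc
The S100A6 promoter held 31 CG dinucleotides and 3 GGGCGG matches, and that of S100A11 held 22 CG and 1 GGGCGG. The IVL promoter held no CG, with 1 TATAAA match at -30 and 1 TGANTCA match at -123 from the start. KRTAP4-1 held 1 CG and 2 TATAAA matches. The ratio of observed to expected CG was 0.781 for S100A11, 0.866 for S100A6, 0.0978 for KRTAP4-1 and 0 for IVL, beside a median of 0.580 over 27305 promoters. The medians of the lists were 0.208 for 16 S100A genes, 0.120 for 32 cornified envelope genes, 0.138 for 33 keratin-associated proteins and 0.135 for 22 hair keratins, so the S100A promoters printed lie above the median of their own list. Only 2 of 7 simple epithelial keratins had an entry. TATAAA was found in 29 of 33 promoters of keratin-associated proteins (87.9%), 16 of 22 of hair keratins (72.7%), 19 of 32 of cornified envelope genes (59.4%), 5 of 7 of fused S100 genes, 5 of 16 of S100A genes and 4 of 10 of stratified epithelial keratins, and in 12.0% of all promoters. TGANTCA was found in 6 of 7 promoters of fused S100 genes, 9 of 32 of cornified envelope genes, 3 of 16 of S100A genes and 4 of 33 of keratin-associated proteins, in 0 of 22 of hair and 0 of 10 of stratified epithelial keratins, and in 7.76% of all. GGGCGG was found in 6 of 16 promoters of S100A genes, 5 of 22 of hair keratins, 1 of 10 of stratified epithelial keratins, 1 of 32 of cornified envelope genes, 0 of 7 of fused S100 genes and 0 of 33 of keratin-associated proteins, and in 44.6% of all. A match describes these letters only.

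Open regions were concentrated toward the ends of the type II locus and of the epidermal differentiation complex. In windows of 100 kb counted from the start of each locus, the first and the last window of the type II locus, on the sides of KRT80 and KRT7 and of KRT8 and KRT18 in the gene order, each held 11 merged regions, with 4 and 5 of them called in all 6 libraries. The 6 windows between held 2 to 6 regions and at most 1 called in all 6. The epidermal differentiation complex held 9 regions in its first window, on the side of S100A10 and S100A11. On the side of the S100A genes it held 14 in the window from 1500 kb and 9 in the last, which is 80 kb long. The 14 windows between them held 1 to 5 regions each. Over the genome, 0.569% of 25830 such windows held at least 11 regions, 1.98% at least 9 and 0.0581% at least 14. The type I locus was sparser than these, with at most 6 regions in a window, and 5 of its 10 full windows had no region called in all 6 libraries. With 32 regions in 1010 kb it was still denser than the genome mean given next. Over the 3 loci there were 4.27 regions per 100 kb, and over windows in genome bins of 1 Mb that held a region there were 2.28. None of the 34 full windows of the loci lacked a region, as 27.7% of the genome's windows did. Of the 34, 15 lacked one called in all 6 libraries. The share of such windows over the genome is not given here, so neither count of them can be called high or low.

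**Figure D1:**
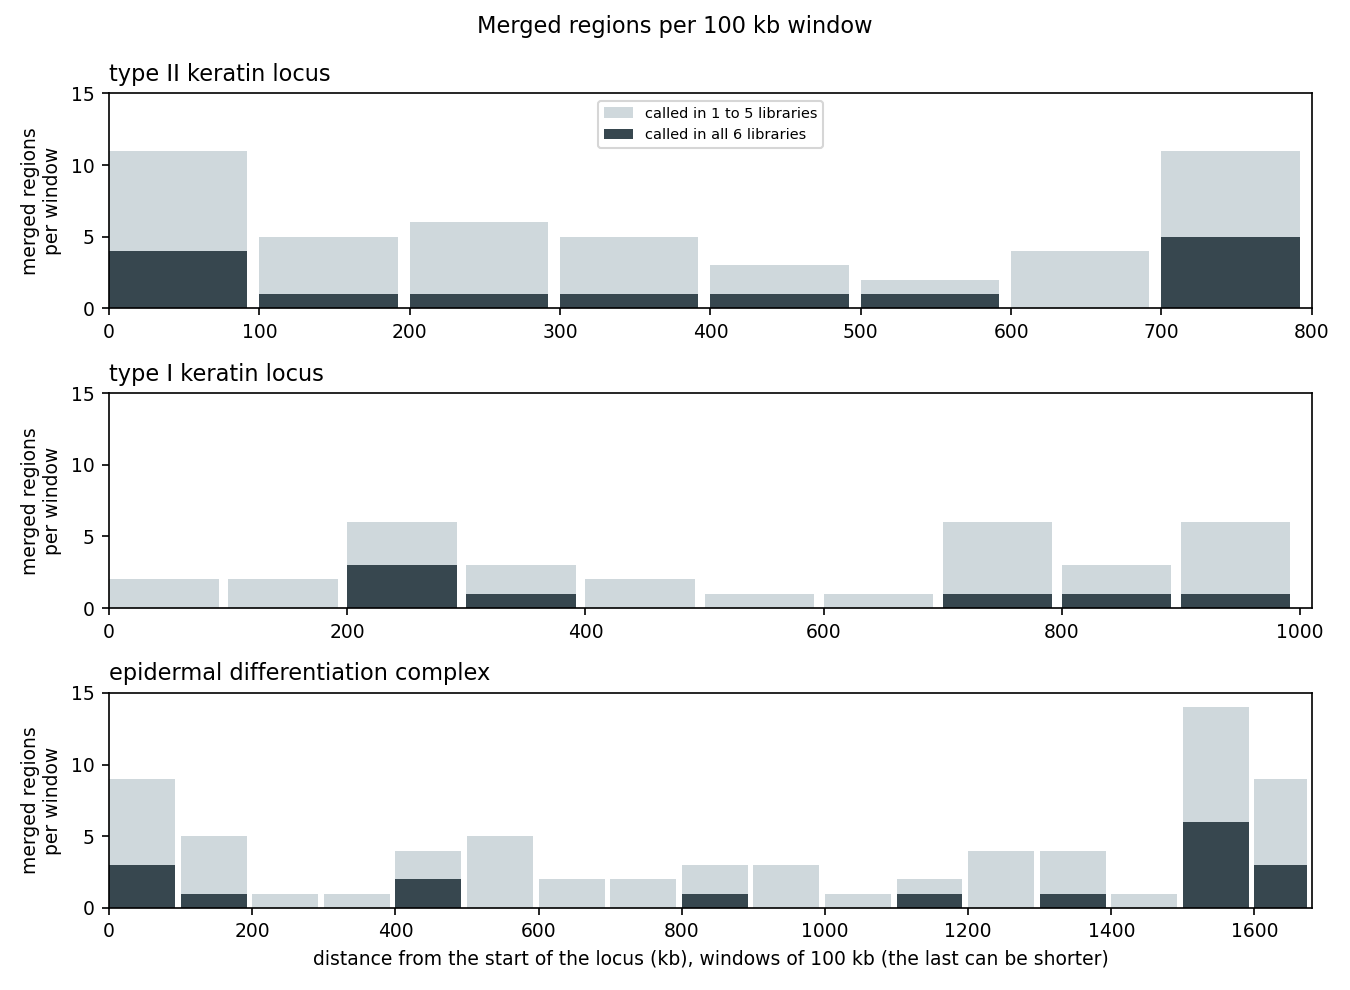
Merged regions per 100 kb window against distance from the start of each locus in kb; light bars count regions called in 1 to 5 libraries, and dark bars stacked below them regions called in all 6. The type II locus and the epidermal differentiation complex peak at both ends (11 and 11, and 9 and 14, regions per window), and the type I locus has no window above 6.

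Long stretches inside the loci had no peak in any library. The longest lay in the type I locus, chromosome 17 at 39288548 to 39478535 (190.0 kb), beginning 509 kb from the start of the locus; 3.13% of the gaps between neighbouring regions of the genome were as long. In the gene order the interior of the cluster holds the keratin-associated proteins, but the order alone does not place them in this stretch. In the epidermal differentiation complex the longest such stretch was chromosome 1 at 152158304 to 152319587 (161 kb), and 4.06% of gaps of the genome were as long. The longest in the type II locus was chromosome 12 at 53109479 to 53192728 (83.25 kb, 11.3% of gaps as long). Each of these is the longest of many gaps, so the genome's share of single gaps does not make it unusual. Gaps over 100 kb numbered 0 of 46 in the type II locus, 3 of 31 in the type I locus and 1 of 69 in the complex. Over the genome 8.61% of 58903 gaps were over 100 kb. The median gap between neighbouring regions was shorter than over the genome in each locus. It was 10.04 kb in the type II locus, 14.8 kb in the type I locus and 10.4 kb in the epidermal differentiation complex, beside 19.3 kb. Between neighbouring regions called in all 6 libraries, the widest gaps were 182 kb in the type II locus, 446 kb in the type I locus and 429.8 kb in the epidermal differentiation complex. Inside them lay 5, 8 and 12 regions called in fewer libraries. How common gaps of this kind are over the genome is not given here. Stretches without a peak in any library hold no call above the threshold, and how accessible they were below it is not known.

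All 6 lists held a peak at 39 of the 149 regions (26.2%), against 28.9% over the genome. A single list held one at 44 regions, 29.5% against 25.1% over the genome. By locus, 14 of 47 regions of the type II locus, 7 of 32 of the type I locus and 18 of 70 of the epidermal differentiation complex were called in all 6. NuMA-depleted replicates 1, 2 and 3 called 95, 109 and 51 of the regions, and wild-type replicates 1, 2 and 3 called 83, 89 and 77. NuMA-depleted replicate 3 thus called the fewest and replicate 2 the most, and these lists were also the shortest and the longest genome-wide, with 21783 and 45892 peaks. Of the 44, NuMA-depleted replicates 1, 2 and 3 held 12, 18 and 0, which is 8.05%, 12.1% and 0% of the 149 regions (genome, 4.20%, 9.55% and 0.643%). Wild-type replicates 1, 2 and 3 held 3, 9 and 2, which is 2.01%, 6.04% and 1.34% (genome, 3.69%, 4.71% and 2.32%). The median width was 886 bp for the 39 regions and 293.5 bp for the 44 (genome, 914 and 296 bp). A further 8 regions (5.37%; genome, 8.69%) were called everywhere but in NuMA-depleted replicate 3.

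**Figure D2:**
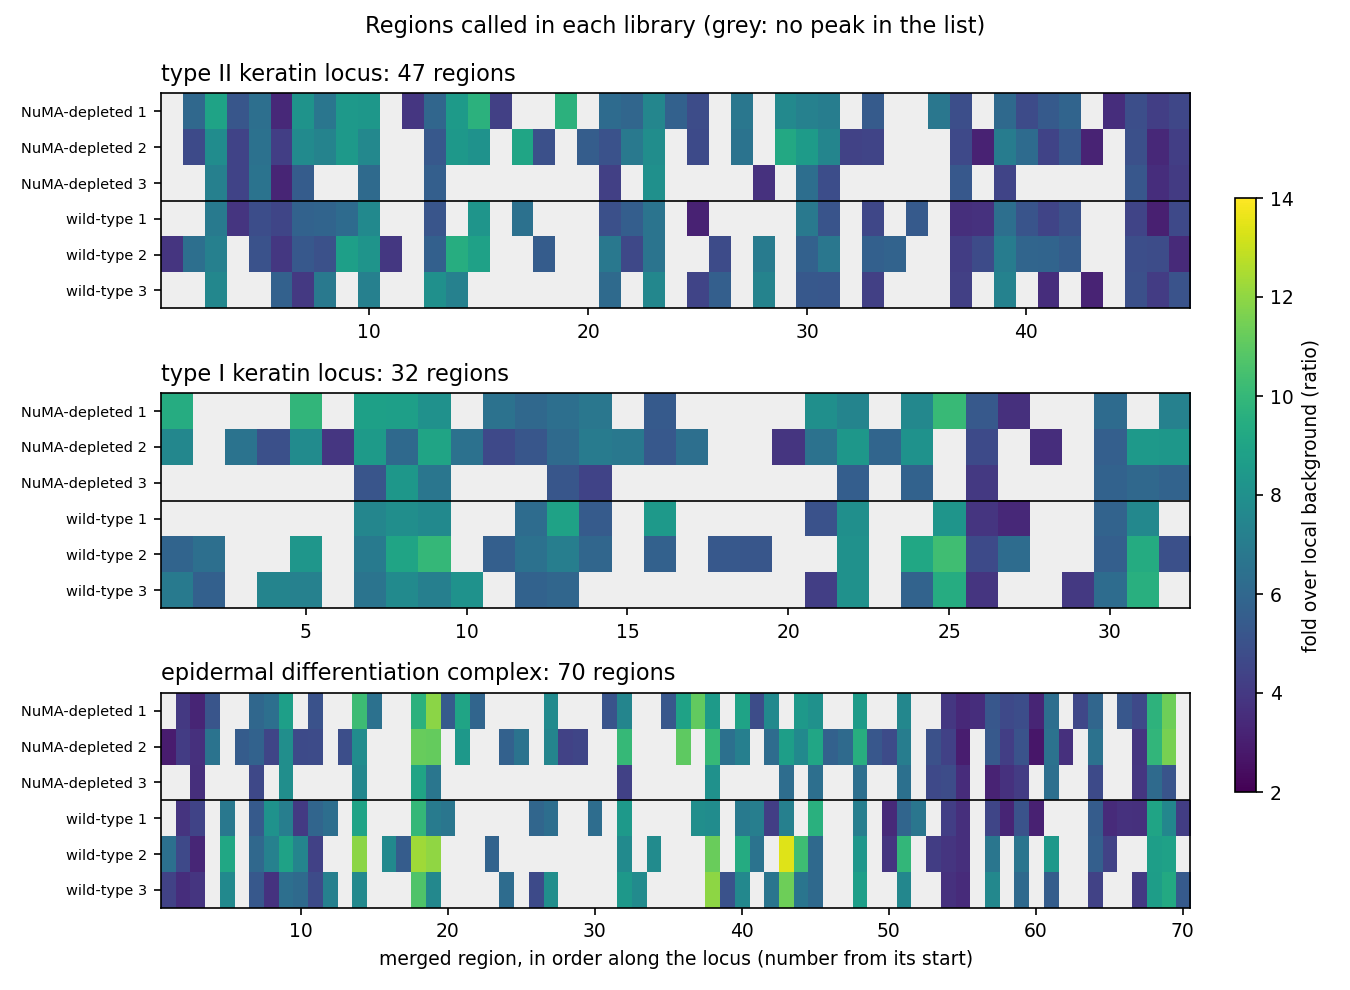
Each column is a merged region in order along its locus and each row a library, with colour for the fold over local background of its strongest peak there (a ratio) and grey where the list has no peak; the black line divides the groups. Filled columns are the 39 regions called in all 6 libraries, and the row of NuMA-depleted replicate 3 has the most grey, with 51 regions called.

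Among the regions of the type II locus called in all 6 libraries, the 2 with the highest weakest −log10 q lay in its first 100 kb. The fold given here for each peak is the deposited height over the caller's local background, a ratio that belongs to its own list. Chromosome 12 at 52585537 to 52586631 (1095 bp) had folds of 8.96, 7.82 and 7.21 in NuMA-depleted replicates 1 to 3 and 6.92, 7.21 and 7.56 in wild-type replicates 1 to 3, and its weakest −log10 q was 14.6. The groups overlapped, and the spread over all 6 was small (7.61 ± 0.730, SD, n = 6). At 52637188 to 52638525 folds were 8.37, 7.59 and 6.14 in NuMA-depleted and 7.71, 8.22 and 7.20 in wild-type replicates 1 to 3. There NuMA-depleted replicate 3 was the lowest library. Further in, single regions of 617 to 1046 bp were called in all 6 libraries at 52674143 to 52675188 (mean fold 5.96), 52834729 to 52835614 (5.57), 52889808 to 52890848 (7.37), 53049115 to 53050115 (6.68) and 53081509 to 53082125 (6.10). Regions called in fewer libraries reached higher folds, such as 52721209 to 52721800, called in 4 libraries (mean fold 8.74), and 52789693 to 52789964, called only in NuMA-depleted replicate 1 (9.73).

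The widest region of the 3 loci lay near the KRT8 and KRT18 end, with a low fold in every library. It spanned 2455 bp on chromosome 12 at 53318213 to 53320667, with folds of 4.90, 4.95 and 5.27 in NuMA-depleted and 4.47, 4.86 and 4.95 in wild-type replicates 1 to 3. The 6 values lay close together (4.90 ± 0.257, SD, n = 6) and the groups overlapped. The number of fragments stacked at a summit, recovered from fold and p-value under the caller's Poisson model, was 36, 55 and 30 in NuMA-depleted and 28, 35 and 33 in wild-type replicates 1 to 3. The local background there was 4.33 to 8.56 times the lowest background of each library. Its neighbour at 53320686 to 53321473 had folds from 3.03 to 4.79, and the last region of the locus, at 53339240 to 53340063, from 3.41 to 5.09. In the last 100 kb the median fold of the 5 regions called in all 6 libraries was 4.49, beside 6.81 for the 4 in the first 100 kb.

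In the type I locus, 3 of its 7 regions called in all 6 libraries stood close together, centred between 279.9 and 291.6 kb from its start. At chromosome 17, 39059560 to 39060317, folds were 8.83, 8.56 and 5.15 in NuMA-depleted and 7.53, 6.89 and 6.63 in wild-type replicates 1 to 3. At 39065656 to 39066334 they were 8.79, 6.12 and 8.33 and 7.91, 9.01 and 7.75, and at 39071391 to 39071824 they were 8.07, 9.02 and 6.73 and 7.69, 10.01 and 7.16, in the same order. No library was lowest at all 3, and the groups overlapped at each. Their summits held 14 to 41 fragments. The local background had medians of 2.5, 1.68 and 1.51 times the lowest of each library, beside 3.04 for the genome's regions called in all 6. The remaining 4 were at 39112937 to 39113582 (mean fold 6.62), 39560068 to 39560880 (7.57), 39677807 to 39679078 (4.41) and 39703819 to 39705724 (5.88).

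Of these, the 2 nearest the KRT19 to KRT17 end were wide, at 1272 and 1906 bp, with folds under 6.3 in every library. The widest of the locus, 39703819 to 39705724 (1906 bp), had folds of 6.21, 5.61 and 5.75 in NuMA-depleted and 5.81, 5.64 and 6.23 in wild-type replicates 1 to 3, and its strongest summits in the 6 libraries lay up to 1041 bp apart. At 39677807 to 39679078 folds were 5.37, 4.71 and 3.99 against 3.85, 4.68 and 3.86 in the same order, with the highest local background of the 39 regions (median 8.27 times the lowest). Between the groups the folds overlapped. A strong region at 39652910 to 39653325 was missing from NuMA-depleted replicates 2 and 3, with folds of 10.1 in NuMA-depleted replicate 1 and 8.25, 10.3 and 9.42 in wild-type replicates 1 to 3.

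In the epidermal differentiation complex the region with the highest weakest −log10 q of the 39 lay near its S100A10 and S100A11 end. At chromosome 1, 152020130 to 152021187, folds were 8.78, 7.95 and 7.92 in NuMA-depleted and 7.15, 8.93 and 6.36 in wild-type replicates 1 to 3, −log10 q was at least 16.9, and summits held 37 to 94 fragments. Wild-type replicate 3 was lowest and the groups overlapped. Regions further in were fewer per window, and several reached higher folds over a low local background. At 152371451 to 152372125 folds were 9.72, 11.2 and 9.0 in NuMA-depleted and 9.97, 12.3 and 10.7 in wild-type replicates 1 to 3, the highest mean of the 39 (10.5 ± 1.18, SD, n = 6), with a local background of 1.48 to 2.47 times the lowest. Its summits in the 6 libraries lay within 29 bp. At 152413055 to 152413757 folds were 11.9, 11.1 and 6.72 against 7.01, 12.0 and 7.62. NuMA-depleted replicate 3 and wild-type replicates 1 and 3 were low there. The other interior regions called in all 6 were 152139899 to 152141010 (mean fold 9.03), 152843554 to 152844131 (7.74), 153095252 to 153096165 (9.62) and 153285116 to 153285869 (7.57). The highest single fold of the 3 loci, 13.4 in wild-type replicate 2, was at 153250292 to 153250765, which NuMA-depleted replicate 1 did not call.

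Toward the S100A genes at the far end, regions were dense, and several were wide and low in fold. In the window from 1500 kb, 6 of 14 regions were called in all 6 libraries, with a median of their mean fold of 5.38. At 153507895 to 153509185 folds were 3.39, 2.96 and 3.51 in NuMA-depleted and 3.60, 3.63 and 3.49 in wild-type replicates 1 to 3, the lowest mean of the 39 regions (3.43 ± 0.246, SD, n = 6). Its neighbour at 153505544 to 153506617 had folds from 3.71 to 4.80. The widest of the complex, 153538095 to 153539597 (1503 bp), had folds of 4.83, 5.08 and 4.15 in NuMA-depleted and 5.05, 6.65 and 6.12 in wild-type replicates 1 to 3, with overlapping groups. At 153580915 to 153581926 the mean fold was 5.44, with a local background of 4.43 to 7.95 times the lowest. Beside these, 153462687 to 153463490 (8.11), 153599505 to 153600571 (8.69) and 153606305 to 153607007 (8.95) had higher mean folds.

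**Figure D3:**
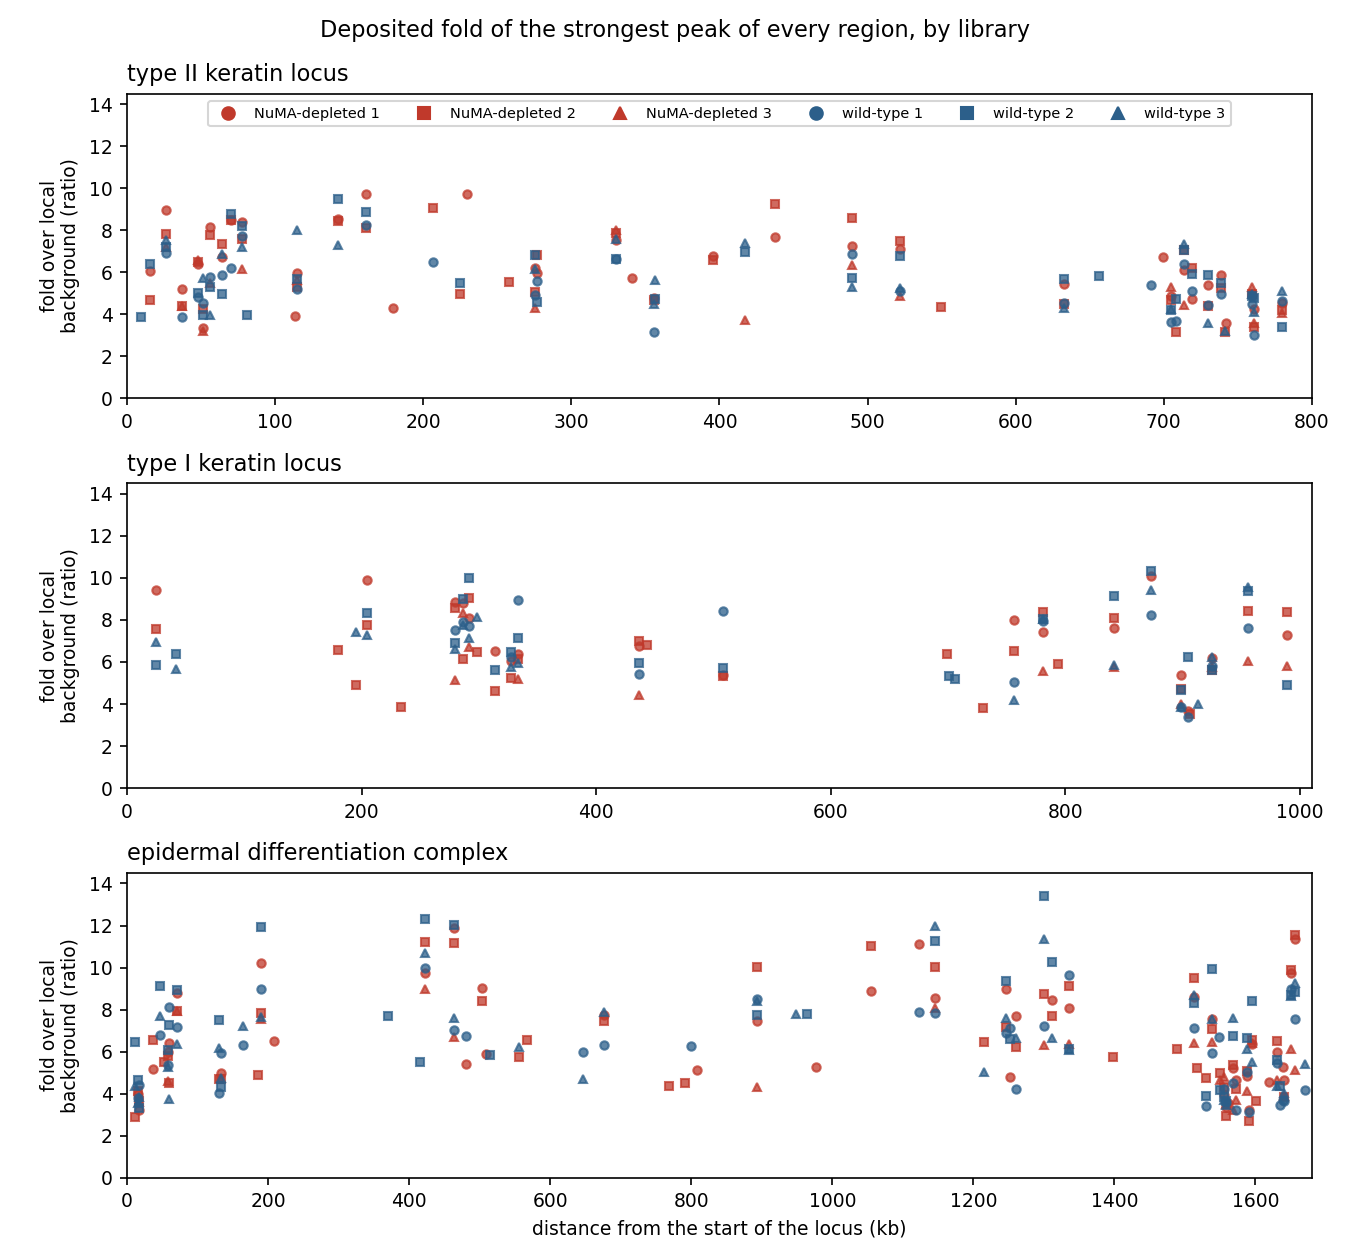
Deposited fold over local background (a ratio) of the strongest peak of each region in each library, against distance from the start of the locus in kb; colour gives the group and shape the replicate. The last 3 regions of the type II locus have folds from 3.03 to 5.27, and folds reach 13.4 inside the epidermal differentiation complex.

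Low fold went with high local background across these regions. Over the 39 regions called in all 6 libraries, mean fold and the median local background had a Spearman rho of -0.724 and a Pearson r of -0.735, given as a description, since the regions share the 6 libraries and the local background is the denominator of the fold. The 17 regions of at least 1 kb had a median mean fold of 5.88 and a local background of 4.95 times the lowest, and the 22 narrower ones 7.34 and 2.60. Over the genome the medians were 7.74 and 3.57 for 6738 wide regions, and 8.02 and 2.69 for 10271 narrower ones. Ranked by fold among the 17009 regions called in all 6 libraries, so that every list has the same length, the 39 regions had a median percentile of 24.3 (median of 6 libraries for each region), and 9 of 39 were above the 50th. Those of the type II locus had a median of 14.3 with 0 of 14 above the 50th, those of the type I locus 37.2 with 2 of 7, and those of the epidermal differentiation complex 47.9 with 7 of 18. By the recovered number of fragments at the summit the medians were 39.7 for all 39, 37.4 for the type II locus, 32.9 for the type I locus and 45.8 for the epidermal differentiation complex.

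**Figure D4:**
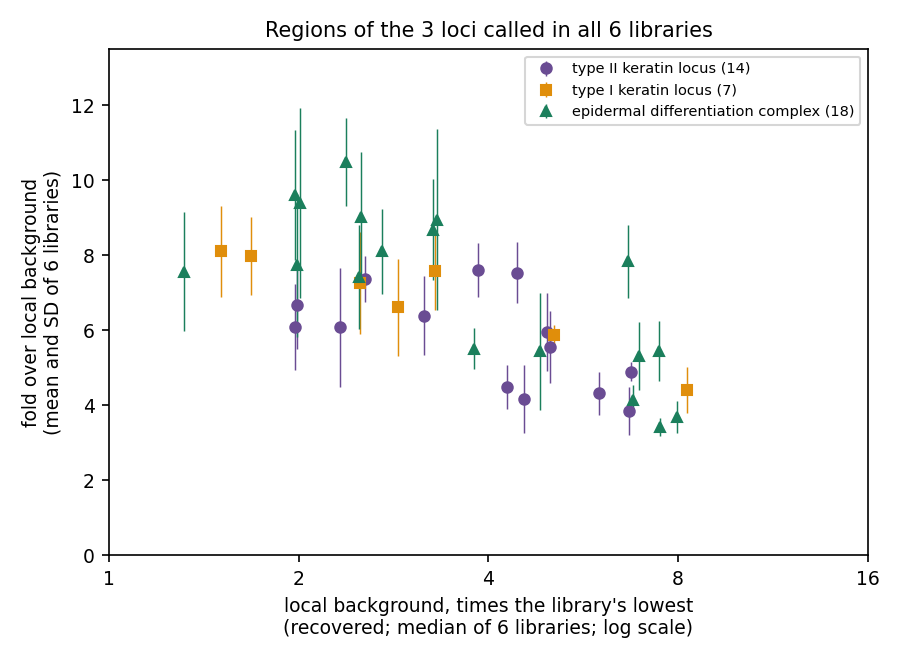
Mean fold over local background with its SD over 6 libraries (vertical, a ratio) against the recovered local background as a multiple of the lowest in the library (horizontal, log scale) for the 39 regions called in all 6 libraries. Regions with a background above 6 times the lowest have mean folds under 6 with 1 exception, at 7.85.

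Whether NuMA depletion changed the openness of these loci was asked first of the number of peaks. Depth in reads is unknown, and relative depth was estimated from the lowest recovered background and the smallest peak width. Relative to the mean of all libraries, this estimate ran from 1.07 to 1.21 in NuMA-depleted and from 0.762 to 0.975 in wild-type libraries, without overlap. NuMA-depleted replicate 3, the shortest list, stood at 1.11, above every wild-type library. The part of depth in the results below was not tested. NuMA-depleted replicates 1, 2 and 3 had 96, 111 and 52 peaks in the 3 loci, and wild-type replicates 1, 2 and 3 had 85, 92 and 78. The groups overlapped, with NuMA-depleted libraries at both extremes. The means were 86.3 ± 30.7 and 85 ± 7 (SD, n = 3 each), with p = 1 in the two-sided exact permutation test. The difference turned from 1.33 to -3.5 and -11 without NuMA-depleted replicates 1 and 2 and to -2.17 without wild-type replicate 3. Without NuMA-depleted replicate 3 it rose to 18.5, and the groups did not overlap (exact permutation test, p = 0.1). With 3 libraries against 3, this test cannot give a p below 0.1.

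As a share of the peaks of its library, the loci were nearly constant across lists of very unlike length. The share was 0.250%, 0.242% and 0.239% in NuMA-depleted and 0.239%, 0.238% and 0.240% in wild-type replicates 1 to 3. The groups overlapped and the difference was 0.00431 percentage points (exact permutation test, p = 0.3, adjusted over 4 shares 1). Without NuMA-depleted replicate 3 the groups did not overlap and the difference was 0.00665 (exact permutation test, p = 0.1, the smallest it can give). The type II locus took 0.0832% ± 0.00685 and 0.0782% ± 0.00930 of the peaks, the type I locus 0.0537% ± 0.00382 and 0.0525% ± 0.00893, and the epidermal differentiation complex 0.106% ± 0.00242 and 0.108% ± 0.0110, in NuMA-depleted and wild-type libraries (SD, n = 3 each). The exact permutation test gave p = 0.6, 1 and 0.9 (adjusted 1 each). In the type II locus wild-type replicate 3 was lowest with 0.0677%, and without it the difference turned to -0.000276 percentage points. In the type I locus wild-type replicate 1 was lowest with 0.0423%. The difference there turned to -0.00395 without that library and to -0.000284 without NuMA-depleted replicate 2. In the epidermal differentiation complex it turned from -0.00187 to 0.00172 and 0.000891 without wild-type replicates 1 and 3, and was -0.00821 without wild-type replicate 2, where the groups did not overlap (exact permutation test, p = 0.1). The intervals of these differences were not computed, and a p above the threshold does not show that the groups are alike.

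With each list limited to its 21783 strongest peaks, the length of the shortest list, the groups separated in the type II locus. The 3 loci then held 57, 51 and 52 peaks in NuMA-depleted and 47, 48 and 47 in wild-type replicates 1 to 3, with no overlap (difference 6; exact permutation test, p = 0.1). Their share was 0.245% ± 0.0148 and 0.217% ± 0.00265 (SD, n = 3 each), a difference of 0.0275 percentage points (exact permutation test, p = 0.1, adjusted over 4 shares 0.2). The type II locus took 0.0826%, 0.0872% and 0.0780% of the peaks in NuMA-depleted and 0.0597%, 0.0551% and 0.0551% in wild-type replicates 1 to 3. These values did not overlap either (difference 0.0260, exact permutation test, p = 0.1, adjusted 0.2), and 0.1 is the smallest p that the test can give. The type I locus (difference 0.00153) and the epidermal differentiation complex (difference 0) overlapped between the groups, with p = 1 each in the exact permutation test. At 21783 peaks, NuMA-depleted replicates 1 and 2 each lay above every wild-type library, in the 3 loci together and in the type II locus. The separation did not hold at a higher limit. Without NuMA-depleted replicate 3, whose length sets the limit, the other 5 lists were limited to 32503 peaks, and the groups overlapped. This alternative was chosen after seeing the data and changed both the libraries and the limit. The 3 loci then held 81 and 71 peaks in NuMA-depleted replicates 1 and 2 and 77, 77 and 78 in wild-type replicates 1 to 3 (share difference -0.00410, exact permutation test, p = 0.7), and the type II difference was 0.00923 (exact permutation test, p = 0.5).

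**Figure D5:**
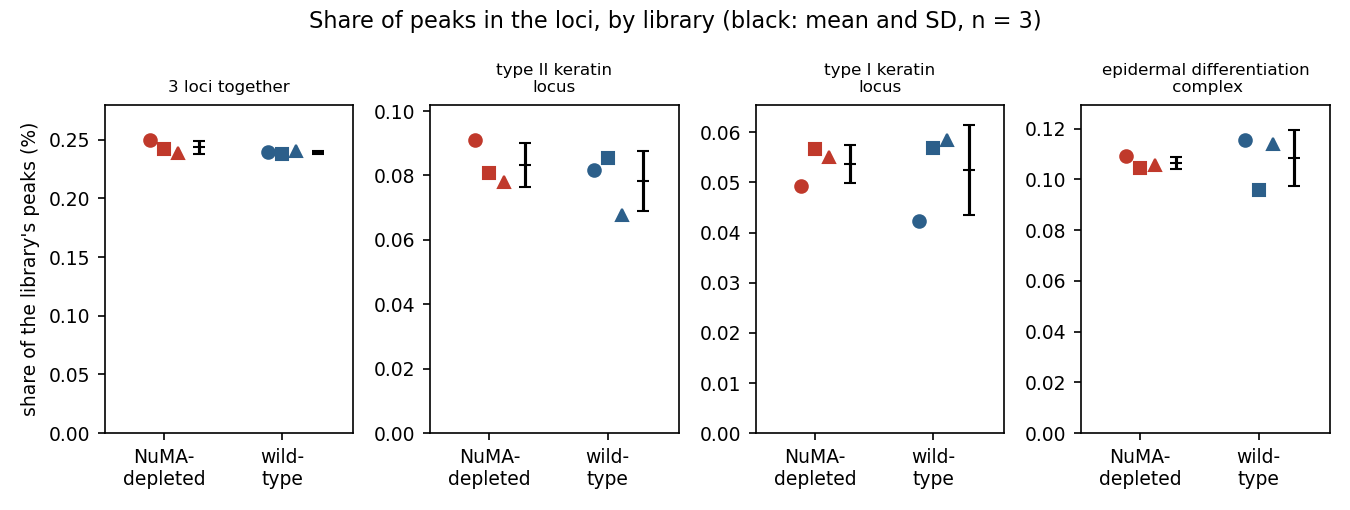
Share of each library's peaks that lay in the 3 loci together and in each locus (percent, axes from 0), with 1 point per library and the mean and SD (n = 3) in black. All 6 libraries lie between 0.238% and 0.250% for the loci together, and the groups overlap in every panel.

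By 1 Mb bins over the whole genome, log2 of the share of peaks was tested in limma. None of the 7 bins that touch the loci passed the adjusted threshold of 0.05, and none of the 2022 bins tested did (0% of bins called). In limma 114 bins had an unadjusted p under 0.05, of which 0 were among the 7. A bin that did not pass is not thereby shown to be unchanged. The largest difference was in the bin from 38 to 39 Mb on chromosome 17, which the locus covers only in its last part, with 36, 47 and 13 peaks in NuMA-depleted and 31, 36 and 38 in wild-type replicates 1 to 3 (log2 difference -0.23, SE 0.158, limma adjusted p = 0.890). NuMA-depleted replicate 3 alone was low there. In the bin from 52 to 53 Mb on chromosome 12 there were 40, 44 and 19 peaks against 31, 37 and 24 (log2 difference 0.17, SE 0.118, limma adjusted p = 0.890). The bin from 152 to 153 Mb on chromosome 1, which lies wholly inside the epidermal differentiation complex, held 15, 17 and 6 against 14, 13 and 14 peaks (log2 difference -0.16, SE 0.173, limma adjusted p = 0.932).

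A single region separated the groups by presence. Chromosome 1 at 151996437 to 151997532 (1096 bp), in the first 100 kb of the epidermal differentiation complex, was called in all 3 wild-type libraries, with folds of 6.79, 9.13 and 7.70, and in no NuMA-depleted library. Its −log10 q was 10.4 to 16.6 and its summits, within 7 bp of each other, held 19, 24 and 21 fragments. No region of the 3 loci was called in all NuMA-depleted and no wild-type libraries. Over the genome 0.592% of regions were called only in all wild-type and 0.625% only in all NuMA-depleted libraries, so 1 and 0 of 149 are near the background. Without wild-type replicate 2, the other two wild-type libraries alone held 4 of 140 regions (2.86%; genome, 1.10%). Without NuMA-depleted replicate 3, its other two libraries alone held 5 of 150 (3.33%; genome, 4.59%), the one with the highest folds at 153005147 to 153005820 with folds of 8.90 and 11.004. With 3 lists against 3, presence at a single region cannot give a p below 0.1.

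With lists limited to 21783 peaks, as above, 19 of 91 regions were called in all 6 libraries (genome, 33.9%). Another 5 of 91 were called in all NuMA-depleted and no wild-type libraries (genome, 1.26%), and 1 of 91 in all wild-type and no NuMA-depleted libraries (genome, 0.975%). The wild-type region was the same one. At 4 of the 5, at least 2 wild-type libraries had a peak in the full deposited lists, and at the fifth, chromosome 17 at 39769013 to 39769585, wild-type replicate 2 had one. That region had folds of 7.26, 8.37 and 5.82 in NuMA-depleted replicates 1 to 3 and 4.92 in wild-type replicate 2. At chromosome 12, 52607326 to 52608047, folds were 6.40, 6.46 and 6.59 in NuMA-depleted and 4.82 and 5.03 in wild-type replicates 1 and 2, with no peak in wild-type replicate 3. At 52615709 to 52616243 they were 8.15, 7.76 and 5.49 against 5.79, 5.32 and 3.97, where NuMA-depleted replicate 3 lay below wild-type replicate 1. The other two, at 53081509 to 53082125 on chromosome 12 and 152006954 to 152007813 on chromosome 1, were called in all 6 deposited lists with overlapping folds. This limit keeps the whole list of NuMA-depleted replicate 3 and drops the weaker calls of all other lists.

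By fold rank among the regions called in all 6 libraries, 3 of the 39 regions were higher in every NuMA-depleted than in every wild-type library and 1 was lower (genome, 6.75% and 6.21%), which is 7.69% and 2.56% of them and was not tested. The first of them was chromosome 12 at 52615709 to 52616243, in the first 100 kb of the type II locus, at percentiles of 48.4, 42.5 and 28.2 in NuMA-depleted and 16.9, 5.33 and 1.18 in wild-type replicates 1 to 3. The next, 53264204 to 53265422 in the last 100 kb, stood at 3.84, 3.29 and 24.6 against 0.670, 0.976 and 2.05. The third, chromosome 17 at 39677807 to 39679078, stood at 7.03, 3.51 and 3.4 against 1.03, 2.29 and 0.917. The widest region of the epidermal differentiation complex, at 153538095 to 153539597, was lower, with 3.63, 5.65 and 4.76 against 7.84, 17.5 and 18.8. Except for the first, these regions lay under the 25th percentile in every library. Exact permutation of a single region here cannot give a p below 0.1.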

How the data were processed

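ATAC-seq libraries of HCT116 cells (3 NuMA-depleted, 3 wild-type, grouped by the genotype label) were each deposited as 1 peak list. Per the submitters' processing notes, Trim Galore, Bowtie2 2.4.1 and Picard were used on build hg19. Names inside the files carry the words macs2 and combine, the latter unexplained; of caller version, settings, filters and any shift of reads for the transposase the sources used here say nothing. The deposited values per peak are a fold over local background (a ratio), a −log10 p-value and a −log10 q-value (at least 2.00 in every list), each within its own list.

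Lists were merged at an overlap of 1 bp. A library's fold in a region is that of its strongest peak. Summit fragments and local background were recovered from the deposited fold and its p by a Poisson formula (99.986% to 99.994% of peaks within 0.01 on the −log10 p scale, all 514 members included). The lowest background divided by the smallest width gave relative depth, which assumes that this width is the fragment length; depth in reads is unknown. Shares were compared with exact permutation tests (20 assignments). Peaks per 1 Mb bin were compared with limma 3.58.1 in R 4.3.3 (log2 share, trend, pseudocount 0.5, mean of at least 5 peaks, Benjamini-Hochberg, threshold 0.05). The fit was also run on simulated counts with Poisson spread only, so its outcome, not given here, does not carry over to these lists. Other computation used Python 3.11.15 with numpy 2.4.6, pandas 2.3.3 and scipy 1.17.1. Regions named were, per locus, the 8 called in all 6 libraries with the strongest weakest q, the widest, the group-only ones and the longest empty stretch; others were chosen after their values were seen. Members and lists were chosen with earlier results of these data known. Gene lists and cell type markers could not be applied to hg19 positions; the lists served only for promoters.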

Additional observations from a re-analysis of the deposited data

How the results depend on the processing

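Of 119 recomputed values, 81 stayed the same by the rule used, though sizes could still change. Differences had to keep their direction and their side of 0.05, which tests of 3 against 3 cannot pass. Counts had to stay within 1.5 times. Of the others, 12 differences did not keep their direction and 26 counts left that range. The 81 include the differences with a block for replicate number, which the design fixes, and the counts of bins past the threshold, which stayed at 0. At equal numbers of peaks (the 21783 strongest of each list) the difference in peak number rose from 1.33 to 6, that in the share of the 3 loci from 0.00431 to 0.0275 and that of the type II locus from 0.00499 to 0.0260 percentage points, each with p = 0.1 in the exact permutation test and no overlap of the groups. With the 5 other lists at 32503 peaks, without NuMA-depleted replicate 3 (chosen after seeing the data), they were -1.33, -0.00410 and 0.00923, and those of the type I locus and the epidermal differentiation complex -0.00205 and -0.0113. The share of the epidermal differentiation complex, a difference of -0.00187 percentage points, became 0 at equal numbers of peaks. Leaving out each library gave differences of -11 to 18.5 in peak number and, in percentage points of peaks, 0.00122 to 0.00665 for the 3 loci, -0.000276 to 0.00853 for the type II locus, -0.00395 to 0.00415 for the type I locus and -0.00821 to 0.00172 for the epidermal differentiation complex. Regions called in all 6 libraries, 39, numbered 30 at a −log10 q of at least 5 (22.1%, genome 29.0%) and 19 at equal numbers (20.9%, genome 33.9%). Without a library they numbered 39 to 47, most without NuMA-depleted replicate 3 (31.3%, genome 37.8%). Depleted-only regions, 0, numbered 1 at a −log10 q of at least 5 (0.735%, genome 0.620%) and 5 at equal numbers (5.49%, genome 1.26%). Without a library they numbered 0 to 5, most without NuMA-depleted replicate 3 (3.33%, genome 4.59%). Wild-type-only regions, 1, numbered 1 to 4 without a library, most without wild-type replicate 2 (2.86%, genome 1.10%). Regions ranked higher in all NuMA-depleted libraries, 3, numbered 7 (17.9%) by −log10 q (genome, 7.61%), 7 by recovered summit fragments, chosen after seeing the data (genome, 8.77%), and 5 to 9 without a library, most without NuMA-depleted replicate 3 (23.1%; genome, 12.1%). Those ranked lower, 1, numbered 0 by −log10 q (genome, 7.11%) and 2 to 5 without a library, most without wild-type replicate 1 (12.8%; genome, 11.02%). Leaving out a library weakens each rule in the loci and over the genome alike, so such counts are to be read beside the genome's share. Differences between the loci and the genome's share were not tested. Bins past the threshold numbered 0 under every alternative run (250 kb bins, pseudocount 2, no filter, −log10 q of at least 5, equal numbers, the replicate block and each library left out).

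Same-numbered libraries had correlations of -0.0771, 0.0923 and 0.00668 in their deviations over 2022 bins. Those of unlike number ran from -0.115 to 0.101. With 3 libraries per group, this does not show whether the numbers mark pairs, and the labels do not say. With the replicate block the differences in number and in shares were the same 1.33, 0.00431, 0.00499, 0.00119 and -0.00187. This was fixed by the design, since each number has 1 library per group, and is no check of the differences. The sign-flip test gave p of 0.5 to 1 and cannot go below 0.25. Depth in reads is unknown, and a region missing from a list was not detectable there at its threshold, which does not show that it is absent.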
